A study of Mus musculus with 26 samples.

Results

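Naive pluripotency is held in place in mouse stem cells by a set of transcription factors, and 8 of them were followed here through chemical reprogramming. They are Esrrb, Tfcp2l1, Klf2, Klf4, Klf5, Nr0b1, Tbx3 and Zfp42, chosen by name from the 16718 gene rows of the deposited expression table, where all 8 were present. The table holds RNA sequencing values of 26 mouse libraries made from total RNA. The starting cells were MEF (mouse embryonic fibroblasts, 1 library, taken as day 0). A course labelled with all chemicals had 1 library on each of days 6, 12, 18, 22, 30, 36 and 40 (7 libraries). A course labelled minus BrdU covered the same days (7 libraries), and a course labelled minus Chir covered days 6, 12, 18, 22 and 30 (5 libraries). CiPSC, chemically induced pluripotent stem cells, were labelled as induced pluripotent cells and had 6 libraries. BrdU is bromodeoxyuridine, a thymidine analogue taken up into DNA, and Chir is the usual short name of CHIR99021, an inhibitor of glycogen synthase kinase that raises beta-catenin signalling. The labels name no other chemical, no dose, no strain and no sex, so what all 3 courses share beyond their name is not given, nor is whether the CiPSC libraries came from separate lines or the courses from separate cultures.

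In the naive state of the pre-implantation epiblast, the core factors Pou5f1, Sox2 and Nanog are joined by a second layer of factors that carry the signals of the culture medium to the genome. Signalling by LIF through STAT3 feeds Klf4, Tfcp2l1 and Klf5. Beta-catenin relieves repression by Tcf7l1, and Esrrb, Tfcp2l1, Nr0b1 and Klf2 are among the genes that respond. Zfp42 (also called Rex1) is a widely used reporter of the naive state, and Tbx3 links the network to phosphoinositide kinase signalling and also has roles in extraembryonic endoderm.

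Values are scores on a scale made nearly equal across libraries, so a score of 77 is close to the median gene of any library. Each library summed to between 4143561 and 4162600, which leaves the sequencing depth unknown. The highest score of any of the 8 genes was 6078, below the common ceiling of 21988 that 10 genes shared in each library. No course had replicates within a day, so days stand in for replicates, and p-values measure the spread between these libraries, which may be technical in part. In such bulk samples, fewer cells that express a gene and less RNA per cell cannot be told apart. MEF held the fibroblast markers Col1a1 (21988) and Thy1 (2167), and it also held the macrophage markers Lyz2 (1686) and Csf1r (386); in CiPSC the 14 fibroblast markers summed to 111 to 631 against 85013 in MEF. CiPSC held Pou5f1 at 4501 to 5522, Sox2 at 1490 to 2167 and Nanog at 2762 to 8314.

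On mm10 the genes lie apart, with positions from GENCODE M21. Esrrb, an orphan nuclear receptor, lies at chr12:86361117-86521628 on the plus strand. Tfcp2l1, a grainyhead-family factor, lies at chr1:118627945-118685168 on the plus strand, and its exons overlap the small gene Gm23497 on the same strand. The Krüppel-like zinc finger genes lie at chr8:72319033-72321656 (Klf2, plus strand), chr4:55527143-55532466 (Klf4, minus strand) and chr14:99298691-99315036 (Klf5, plus strand). Nr0b1, a nuclear receptor without a DNA-binding domain (Dax1), lies at chrX:86191764-86195947 on the plus strand. Tbx3, a T-box factor, lies at chr5:119670669-119684724 on the plus strand and overlaps exons of the antisense gene Tbx3os1. Whether counting used the strand is not given in the sources used here, so RNA of Tbx3 and of Tbx3os1 cannot be told apart. Zfp42, a zinc finger gene, lies at chr8:43295063-43306980 on the minus strand.

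Of the 8 genes, 4 (Esrrb, Tfcp2l1, Nr0b1 and Zfp42) rose together along the course with all chemicals, and the 250 bases before their RefSeq start sites (GRCm38.p6) are shown so that their letters can be compared. The group was formed after the values had been seen. RefSeq windows were matched by symbol for 6 of the 8 genes, 7 windows in all; Klf5 and Tbx3 had none. Esrrb has 2 windows and the upstream one is shown, chr12:86360867-86361116, plus strand. The others are chr1:118627695-118627944, plus strand (Tfcp2l1), chrX:86191525-86191774, plus strand (Nr0b1), and chr8:43307010-43307259, minus strand (Zfp42). Capitals mark the matches to the motifs described after them, on either strand, and each run reads 5′ to 3′ towards the gene.
Esrrb: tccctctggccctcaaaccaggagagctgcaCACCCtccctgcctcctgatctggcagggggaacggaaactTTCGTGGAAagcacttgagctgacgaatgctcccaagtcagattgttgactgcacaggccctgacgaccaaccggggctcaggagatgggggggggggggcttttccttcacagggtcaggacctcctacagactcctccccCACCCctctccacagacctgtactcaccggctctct
Tfcp2l1: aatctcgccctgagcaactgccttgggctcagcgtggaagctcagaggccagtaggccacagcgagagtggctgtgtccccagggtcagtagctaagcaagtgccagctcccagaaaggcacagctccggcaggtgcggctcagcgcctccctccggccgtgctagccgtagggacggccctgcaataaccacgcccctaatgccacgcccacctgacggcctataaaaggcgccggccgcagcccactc
Nr0b1: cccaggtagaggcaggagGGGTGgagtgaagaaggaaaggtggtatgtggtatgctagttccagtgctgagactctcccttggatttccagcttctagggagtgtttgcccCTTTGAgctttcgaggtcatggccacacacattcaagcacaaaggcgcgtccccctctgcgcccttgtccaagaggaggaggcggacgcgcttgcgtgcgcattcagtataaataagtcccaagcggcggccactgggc
Zfp42: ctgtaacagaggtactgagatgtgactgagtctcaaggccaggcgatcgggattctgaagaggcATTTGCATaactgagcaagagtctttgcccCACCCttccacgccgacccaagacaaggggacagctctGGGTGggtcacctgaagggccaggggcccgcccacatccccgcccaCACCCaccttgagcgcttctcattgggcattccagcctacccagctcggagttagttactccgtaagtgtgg

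The motifs searched on both strands were CACCC (a core bound by Krüppel-like factors), TCAAGGTCA (the extended half-site of Esrrb), CTTTGA (a core bound by TCF factors) and TTCNNNGAA (a STAT site). ATTTGCAT, the octamer bound by POU factors such as Pou5f1, was added after the letters of the Zfp42 window had been seen. The CACCC letters occurred 3 times before Zfp42 (156, 118 and 72 bases before the start), 2 times in the Esrrb window shown (219 and 36 bases before) and once before Nr0b1 (232 bases before), and were not in the Tfcp2l1 window. They are common letters, present in 52% of all 32851 promoter windows of that length. The octamer lay 186 bases before the Zfp42 start and is in 1.60% of windows. CTTTGA lay 139 bases before Nr0b1 (13.8% of windows), and TTCNNNGAA lay 178 bases before Esrrb (7.02% of windows). TCAAGGTCA, in 0.387% of windows, was in none of the 7 windows found, which cover 6 of the 8 genes. The share of G and C was 60.8% before Esrrb, 65.2% before Tfcp2l1, 57.2% before Nr0b1 and 58.4% before Zfp42, against 71.2% before Klf2, 74.0% before Klf4 and a median of 52.4% over all windows.

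In CiPSC all 8 genes were above the median gene in every library. Per kilobase of merged exon, the mean score of the 6 CiPSC libraries was highest for Zfp42 (676), then Klf2 (469) and Tfcp2l1 (413). Esrrb (352), Klf4 (280), Nr0b1 (208), Tbx3 (117) and Klf5 (59.3) followed in that order. Whether the scores were already corrected for gene length is not given, so levels of different genes may not be comparable. The order depends on this division: by score alone Tfcp2l1 (3900) and Esrrb (2127) stood above Zfp42 (1272). Spread between the 6 libraries was smallest for Klf4 (854 ± 95.3, SD, n = 6), Esrrb (2127 ± 248) and Klf2 (866 ± 121), with coefficients of variation of 11.2%, 11.6% and 13.9%. It was wider for Zfp42 (1272 ± 256, 20.1%), Nr0b1 (376 ± 85.8, 22.8%), Tfcp2l1 (3900 ± 1118, 28.7%), Klf5 (308 ± 89.4, 29.0%) and Tbx3 (776 ± 255, 32.9%). With that spread, the order is loose: neighbours in it overlapped over the 6 libraries, per kilobase, in every case but Esrrb and Klf4, whose ranges met at 303. Tfcp2l1, for example, ran from 270.2 to 586 per kilobase and Klf2 from 355 to 521. Over the 6 CiPSC libraries, Tbx3 and Zfp42 were high in the same libraries (CiPSC 4, 5 and 6) and low in CiPSC 2. Zfp42 stood at 1193, 972, 986, 1473, 1515 and 1494 in CiPSC 1 to 6, and Tbx3 at 601, 476, 595, 1092, 864 and 1030.

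Against this end point the genes started from different places in MEF. Esrrb, Nr0b1 and Zfp42 were listed at 0 there, and Tfcp2l1 stood at 8. Klf2 stood at 322, Klf4 at 1150, Klf5 at 58 and Tbx3 at 120, so Klf4 was the 1 gene of the 8 whose MEF score lay above every CiPSC library (682 to 923). By limma, fitted over all genes with the spread of the CiPSC libraries standing in for that of the lone library, 7 of the 8 were lower in MEF at an adjusted p (Benjamini-Hochberg) under 0.05, as were 23.4% of all genes tested. The log2 difference was -8.71 ± 0.38 (SE) for Tfcp2l1, -2.62 ± 0.43 for Tbx3, -2.34 ± 0.38 for Klf5 and -1.41 ± 0.23 for Klf2, beside a median of -0.23 over all genes. No fold is given for the 3 genes listed at 0. Klf4 differed by 0.44 ± 0.20 (limma adjusted p = 0.116), which is not past the threshold.

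**Figure D1:**
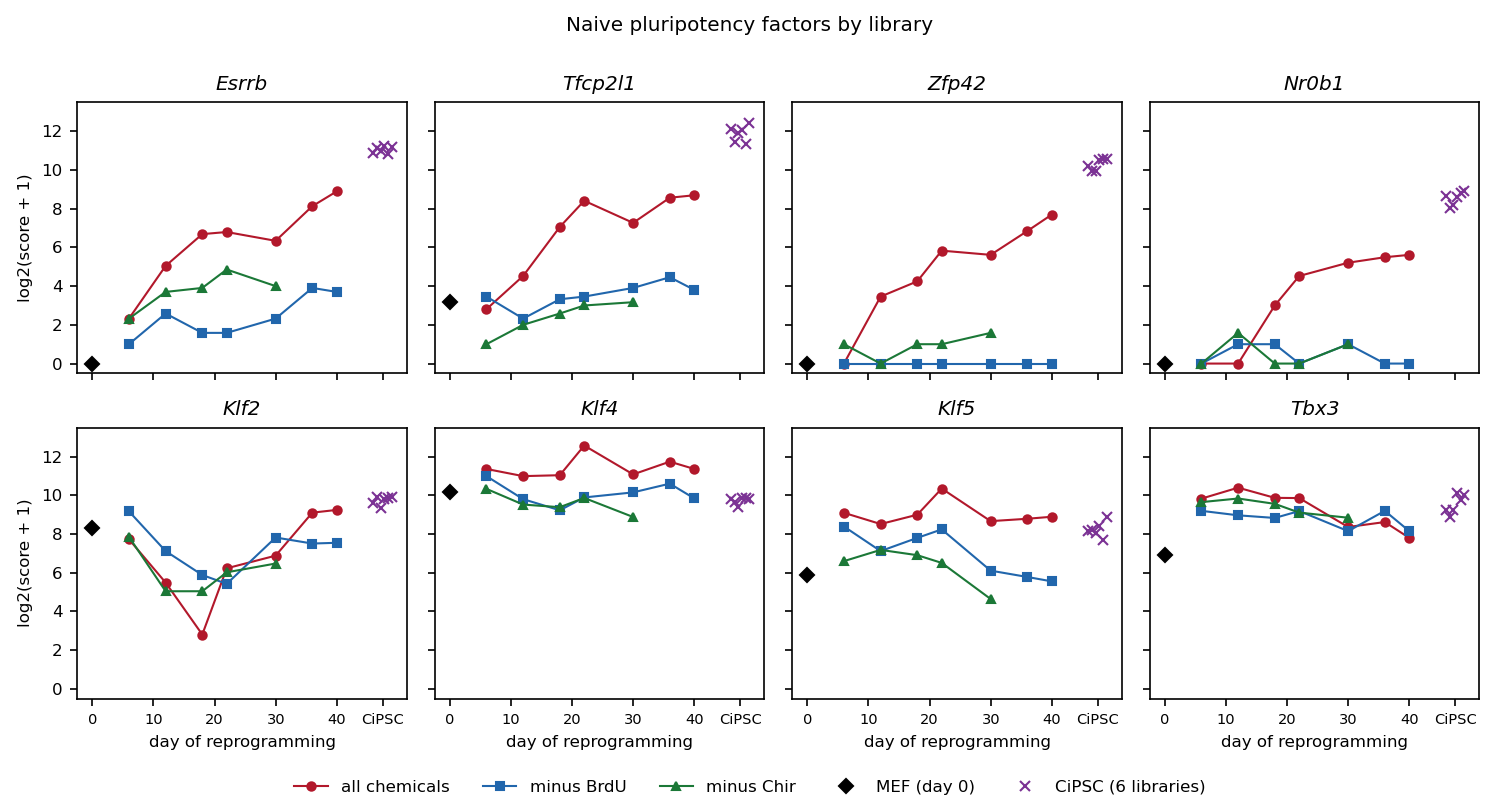
Score of each gene as log2(score + 1) (vertical axis) against the day of reprogramming (horizontal axis) in the course with all chemicals (circles), without BrdU (squares) and without Chir (triangles), with MEF at day 0 (diamond) and the 6 CiPSC libraries at the right (crosses); each point is 1 library. In the top row the circles climb away from the squares and triangles, while in the bottom row the circles of Klf4 lie above all crosses on every day.

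Esrrb, Tfcp2l1, Zfp42 and Nr0b1 rose with day in the course with all chemicals. Esrrb stood at 4, 32, 102, 110, 80, 279 and 475 on days 6, 12, 18, 22, 30, 36 and 40, and Tfcp2l1 at 6, 22, 132, 339, 153, 378 and 413. Zfp42 stood at 0, 10, 18, 56, 48, 114 and 206, and Nr0b1 at 0, 0, 7, 22, 36, 44 and 48. Day 40 held the highest score of each, and in 3 of them, all but Nr0b1, the score on day 30 was below that on day 22.

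A straight line over MEF and the 7 days gave, per 10 days, a log2 slope of 1.96 ± 0.23 (SE) for Zfp42 (limma adjusted p = 0.00202), 1.95 ± 0.27 for Esrrb (0.00331), 1.71 ± 0.25 for Nr0b1 (0.00356) and 1.56 ± 0.24 for Tfcp2l1 (0.00483). These 4 of 8 rising genes compare with 9.31% of all genes tested that rose. All 4 slopes were called with every library left out in turn. Klf2 (0.42 ± 0.48, limma adjusted p = 0.592), Klf4 (0.24 ± 0.15, 0.319), Klf5 (0.42 ± 0.26, 0.299) and Tbx3 (-0.12 ± 0.28, 0.804) had no slope past the threshold. For Tbx3 the MEF library decided this, because without MEF its slope was -0.69 (limma adjusted p = 0.0110).

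The same line in the other courses called none of the 6 genes that could be fitted. The course without Chir ended on day 30, and the full course was not fitted over those days alone. Calls in these 2 courses are therefore not on equal terms. Without BrdU, 0.875% of all genes tested had a slope in either direction, and the smallest unadjusted p among the 6 was that of Esrrb (0.82 ± 0.20 per 10 days, limma adjusted p = 0.105), the 1 gene under 0.05 unadjusted. Without Chir, 0.200% of all genes did, and Esrrb (1.34 ± 0.39, limma adjusted p = 0.137) and Klf4 (-0.41 ± 0.12) were the 2 genes under 0.05 unadjusted. The same 0 was obtained without the intensity trend in both courses. Leaving out MEF called 1095 genes and 1 of the 8 in the course without BrdU: Klf5, with a slope of -0.82 (limma adjusted p = 0.0381). Nr0b1 and Zfp42 had too low a mean for a fit in either course.

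The genes differed in timing, and their order depended on the mark used. The count took the first day from which every later day of the full course stood at 10% or more of the CiPSC mean. Klf4, Klf5 and Tbx3 were past it on day 6, Klf2 on day 30, Esrrb and Nr0b1 on day 36, and Tfcp2l1 and Zfp42 on day 40. MEF, which is not in the count, was already above the mark for Klf4 (134.7%), Klf2 (37.2%), Klf5 (18.8%) and Tbx3 (15.5%). For these genes the day is therefore not a first rise. Klf2 stood at 24.4% on day 6 and was back above the mark on day 30 after a fall. By the same count the core factors Pou5f1 and Sox2 were past it on day 36 and Nanog on day 40. On days 30, 36 and 40 the scores were 11, 371 and 660 for Sox2 and 32, 422 and 771 for Nanog. On day 18 Esrrb stood at 102 and Tfcp2l1 at 132, while Pou5f1 stood at 112, Nanog at 4 and Sox2 at 1. At a mark of 5% of the CiPSC mean, Klf2 and Nr0b1 were past it on day 22, and Esrrb, Tfcp2l1 and Zfp42 all on day 36, with Pou5f1 on day 30 and Sox2 and Nanog on day 36. Without BrdU, Esrrb, Tfcp2l1, Nr0b1 and Zfp42 were past the 10% mark on no day. Without Chir they were past it on no day either, but that course ended on day 30. By day 30 none of these genes was past the mark in the full course, so this count cannot separate the 2 courses.

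**Figure D2:**
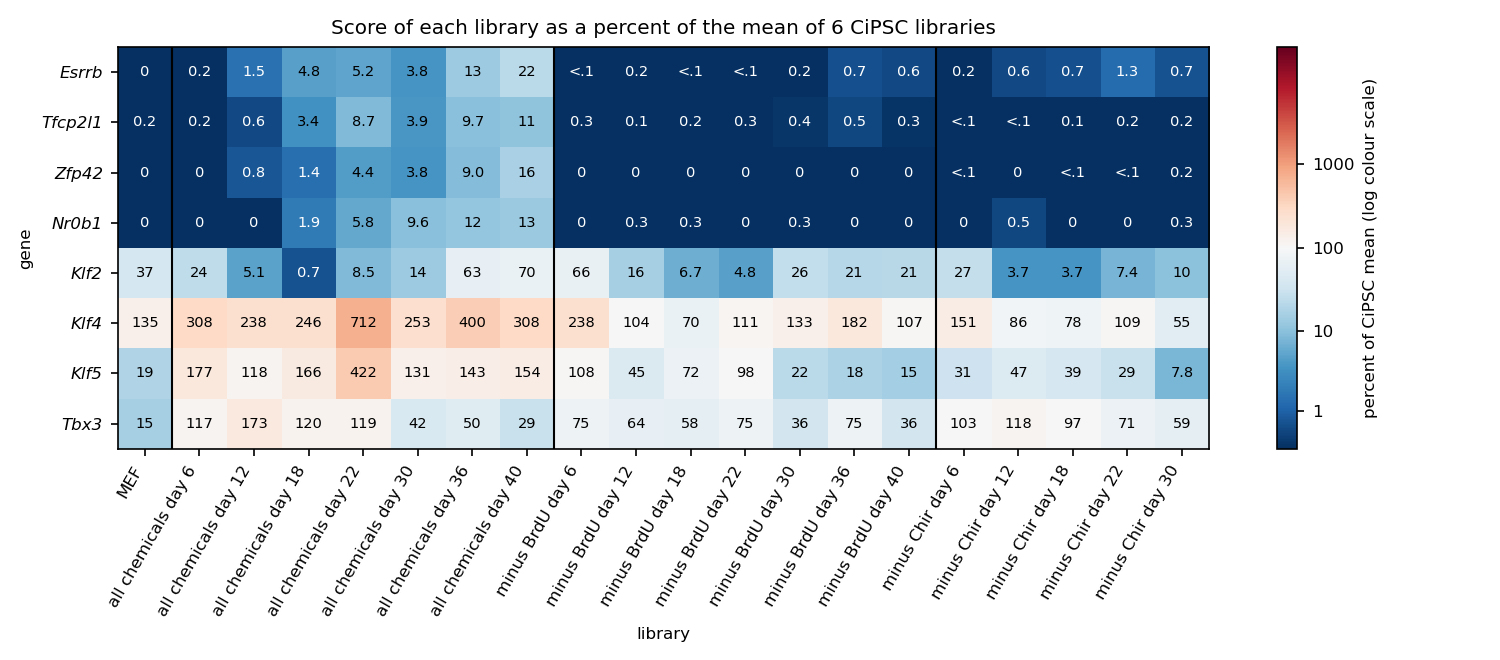
Score of each gene (rows) in MEF and the 19 course libraries (columns) as a percent of its mean over the 6 CiPSC libraries, with the percent printed in each cell and a log colour scale from blue (below 100) to red (above 100). Only Klf4, Klf5 and Tbx3 have cells above 100, and in the upper 4 rows only days 36 and 40 of the course with all chemicals have cells at 10 or more.

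Klf2, a factor of the naive state that is also active in endothelial and blood cells, took another path. In the full course it stood at 211, 44, 6, 74, 117, 549 and 606 on days 6 to 40, below its MEF score of 322 until day 30 and above it on days 36 and 40. Days 30 to 40 were higher than days 12 to 22 by 3.57 ± 0.96 on the log2 scale (limma adjusted p = 0.0463). It was the 1 gene of the 8 that was higher, beside 6.81% of all genes tested. This call was lost without day 12, 18, 36 or 40 (limma adjusted p = 0.0844 to 0.168) and with no intensity trend (0.0859). The low point was shared by the other courses. Without BrdU, Klf2 stood at 576, 138, 58, 42, 225, 181 and 186, and without Chir at 230, 32, 32, 64 and 88. The lowest day was day 18 in the full course, day 22 without BrdU and days 12 and 18 without Chir.

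Tbx3 moved the other way late in the full course. It stood at 908, 1345, 934 and 926 on days 6 to 22 and at 328, 392 and 222 on days 30 to 40. The later 3 days were lower than days 12 to 22 by -1.78 ± 0.25 on the log2 scale (limma adjusted p = 0.00537), the 1 gene of the 8 that was lower beside 7.79% of all genes tested, and the call held with each day left out. Days 30 to 40 did not overlap with any earlier day of the course, but how many of all genes lay apart in this way was not counted. Esrrb (1.61 ± 0.71), Zfp42 (2.20 ± 0.71) and Nr0b1 (2.93 ± 1.02) had positive differences that did not pass the threshold; without day 22, Zfp42 (limma adjusted p = 0.0365) and Nr0b1 (0.0363) did. In the same comparison 5 of 14 fibroblast markers were lower and none was higher (median log2 difference -1.36). Their sum was 57499, 19406 and 5887 on days 12, 18 and 22 and 20586, 21682 and 22361 on days 30, 36 and 40, and their part in the Tbx3 difference was not tested.

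Klf4, a factor of the original reprogramming cocktail, and Klf5, its relative in epithelial and trophectoderm cells, were high throughout the full course. Klf4 stood at 2628, 2033, 2101, 6078, 2164, 3414 and 2628 on days 6 to 40, every day above each CiPSC library (682 to 923). Klf5 stood at 546, 365, 510, 1302, 405, 441 and 474, with CiPSC at 286, 290, 266, 338, 202 and 467. Day 22 was the highest day of both.

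At day 40 the full course was still lower than CiPSC for 5 of the 8 genes, where 14.2% of all genes tested were lower. The log2 difference was -3.19 ± 0.38 (SE) for Tfcp2l1 (limma adjusted p = 0.00150), -2.91 ± 0.40 for Nr0b1 (0.00239), -2.60 ± 0.31 for Zfp42 (0.00146), -2.15 ± 0.21 for Esrrb (6.85e-04) and -1.73 ± 0.43 for Tbx3 (0.0207). As a share of the CiPSC mean these are 10.6% for Tfcp2l1, 12.8% for Nr0b1, 16.2% for Zfp42, 22.3% for Esrrb and 28.6% for Tbx3. The Tbx3 call was lost with no intensity trend (limma adjusted p = 0.0515). Klf4 was higher by 1.63 ± 0.20 (limma adjusted p = 0.00159), the 1 gene of the 8 above CiPSC beside 10.2% of all genes. Klf2 (-0.50 ± 0.23, limma adjusted p = 0.149) and Klf5 (0.67 ± 0.38, 0.233) did not pass. The median difference over all genes was -0.13.

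Beside the higher Klf4, 10 of 13 tested immediate early response genes were higher at day 40 than in CiPSC (10.2% of all genes), such as Egr1 (2550 against a mean of 23.8), Atf3 (1070 against 15.3) and Junb (1343 against 75.5). The 14 listed genes summed to 11862 to 29169 in the full course, 18694 to 30113 without BrdU and 6850 to 22133 without Chir. Their sum was 8837 in MEF and 668 to 1147 in CiPSC. At day 40 the median log2 difference of the 13 genes from CiPSC was 4.48 in the full course and 5.21 without BrdU. Klf4 differed from CiPSC by 0.11 ± 0.20 (SE) at day 40 without BrdU. The part of this response in the Klf4 score was not tested.

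Without BrdU, day 40 was lower than CiPSC for 7 of the 8 genes, where 23.7% of all genes were lower, and Klf4 was the exception (0.11 ± 0.20, limma adjusted p = 0.688). Nr0b1 and Zfp42 were listed at 0 in that library and get no fold. Tfcp2l1 was lower by -8.07 ± 0.38, Esrrb by -7.35 ± 0.21, Klf5 by -2.67 ± 0.38 and Klf2 by -2.20 ± 0.23, all called under each alternative. Tbx3 was lower by -1.38 ± 0.43, a call lost without CiPSC 3 (limma adjusted p = 0.0558) and with no intensity trend (0.0691).

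**Figure D3:**
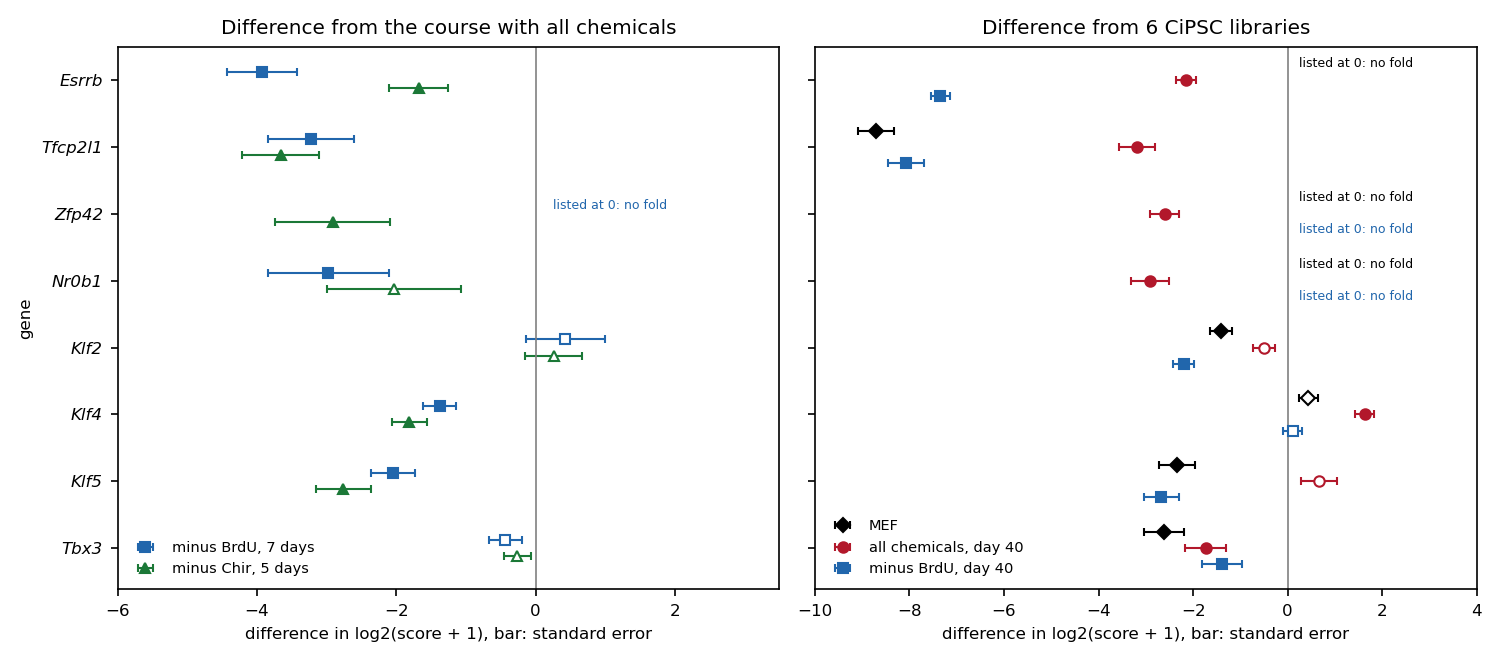
Differences in log2(score + 1) with standard errors as bars, for the courses without BrdU (7 days) and without Chir (5 days) against the course with all chemicals (left), and for MEF and the day 40 libraries against the 6 CiPSC libraries (right). Filled points passed an adjusted p under 0.05 and open points did not; genes listed at 0 in the first group are marked and have no point. On the left both points of Klf2 and of Tbx3 are open. On the right the 1 filled point above 0 is Klf4 at day 40 of the course with all chemicals.

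Leaving out BrdU lowered 6 of the 8 genes over the 7 days, with 21.5% of all genes tested lower. Zfp42 was listed at 0 in all 7 libraries without BrdU, against up to 206 with it (limma adjusted p = 0.00252, no fold given). Esrrb stood at 1, 5, 2, 2, 4, 14 and 12 and was lower on 7 of 7 days, by -3.93 ± 0.50 on the log2 scale (limma adjusted p = 8.64e-04). Tfcp2l1 stood at 10, 4, 9, 10, 14, 21 and 13, near its MEF score of 8, and was lower on 6 of 7 days, by -3.23 ± 0.62 (0.00380). Day 6 was the exception, when the full course stood at 6.

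Nr0b1 never passed a score of 1 without BrdU and was lower by -2.98 ± 0.87 (limma adjusted p = 0.0223). The difference rests on the later days, since the full course itself was at 0 on days 6 and 12. The call was lost without day 22, 30, 36 or 40 (limma adjusted p = 0.0581 to 0.0642) and over days 6 to 30 alone (0.164).

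Klf5 stood at 334, 138, 222, 301, 68, 54 and 46 without BrdU and was lower on 7 of 7 days, by -2.04 ± 0.31 (limma adjusted p = 0.00158). Its highest score there, 334, lay below the lowest of the full course, 365. Klf4 stood at 2032, 891, 598, 947, 1136, 1553 and 916 and was lower on 7 of 7 days, by -1.38 ± 0.24 (0.00271). The courses were separated by a single score, from 2032 (the highest without BrdU, on day 6) to 2033 (the lowest of the full course, on day 12). The Klf4 range without BrdU, 598 to 2032, takes in all 6 CiPSC libraries. How many of all genes lay apart between the courses, as Klf5 and Klf4 did, was not counted.

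Klf2 and Tbx3 were not called. Klf2 differed by 0.43 ± 0.57 (limma adjusted p = 0.563) and was higher without BrdU on 4 of 7 days; without day 18, when the full course stood at 6, the difference was -0.015. Tbx3 stood at 586, 499, 454, 582, 283, 586 and 283 and differed by -0.44 ± 0.24 (0.159). Over days 6 to 30 alone Tbx3 was lower by -0.80 (limma adjusted p = 0.0271).

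Whether the gap between the courses with and without BrdU changed with time was tested as days 30 to 40 against days 6 to 22, and it changed for Klf5 and Tbx3. For Klf5 the difference between the courses was larger on the later days, by -1.61 ± 0.34 on the log2 scale (limma adjusted p = 0.0174), beside 6.58% of all genes tested with such a lower value. Its pairs of scores without and with BrdU went from 334 and 546 on day 6 to 46 and 474 on day 40. For Tbx3 the value was 1.18 ± 0.27 (limma adjusted p = 0.0235), beside 7.02% of all genes with a higher one. Tbx3 was lower without BrdU on 4 of 4 days up to day 22, and on 1 of the 3 later days.

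Both calls were lost without day 36 or without day 40 (limma adjusted p = 0.0679 and 0.0828 for Klf5, 0.0953 and 0.0978 for Tbx3). That of Tbx3 was also lost without day 12 (0.0611), without day 18 (0.0588) and with no intensity trend (0.0571). Neither passed without the day as a block (0.0695 for Klf5 and 0.0614 for Tbx3). Without day 22, Klf2 (-2.83, limma adjusted p = 0.0384) and Nr0b1 (-4.77, 0.0172) were called too, and Nr0b1 also with a pseudocount of 5 in place of 1 (-2.37, 0.0383). In the course without BrdU other genes also shifted between day 22 and day 30: Col1a1 stood at 3420 to 5529 up to day 22 and at 21988, the ceiling, from day 30, while Thy1 stood at 907 to 1441 and then at 14 to 28. The part of that shift in these differences was not tested.

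Leaving out Chir lowered 5 of the 8 genes over 5 days, with 12.9% of all genes tested lower. Tfcp2l1 stood at 1, 3, 5, 7 and 8 and was lower on 5 of 5 days, by -3.66 ± 0.55 on the log2 scale (limma adjusted p = 0.0104). Klf5 stood at 96, 144, 119, 90 and 24, lower by -2.76 ± 0.40 (0.0101), and Klf4 at 1288, 734, 668, 930 and 470, lower by -1.81 ± 0.25 (0.00982). The highest scores without Chir were 1288 for Klf4 and 144 for Klf5, below the lowest of the full course on these days, 2033 and 365. How many of all genes lay apart in this way was not counted. Zfp42 stood at 1, 0, 1, 1 and 2, lower by -2.91 ± 0.82 (0.0386). Esrrb stood at 4, 12, 14, 28 and 15 and was lower on 4 of 5 days, by -1.68 ± 0.43 (0.0295), with equal scores on day 6.

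Nr0b1 stood at 0, 2, 0, 0 and 1, a difference of -2.03 ± 0.97 that did not pass (limma adjusted p = 0.149); in a fit over all 19 course libraries it did (0.0392). Tbx3 stood at 801, 912, 753, 550 and 458, against 908, 1345, 934, 926 and 328 in the full course. It was lower on 4 of 5 days, a difference of -0.26 ± 0.19 that did not pass (limma adjusted p = 0.329). Klf2 differed by 0.26 ± 0.41 (0.655), and by -0.23 without day 18.

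With 5 days the calls of this comparison were fragile. Without day 18 it called 25 genes in all and 0 of the 8, with adjusted p of 0.0573 for Klf5, 0.0603 for Klf4, 0.0627 for Tfcp2l1, 0.110 for Esrrb and 0.121 for Zfp42 by limma, while all 5 differences stayed below 0. Without day 22 it called 226 genes and 1 of the 8, Klf4. The calls of Esrrb and Zfp42 were also lost without day 12 (limma adjusted p = 0.0594 and 0.0938) and without day 30 (0.0787 and 0.105). Esrrb did not pass without the day as a block (0.149), nor Zfp42 with no intensity trend (0.0553).

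The comparisons with the full course share its libraries, so the courses without BrdU and without Chir were also set against each other over their 5 shared days. Esrrb was higher without Chir than without BrdU on 5 of 5 days, by 1.94 ± 0.42 on the log2 scale (limma adjusted p = 0.0125). Tbx3 was higher by 0.53 ± 0.16 (0.0366) on 4 of 5 days. These 2 of the 6 genes tested compare with 16.9% of all genes that were higher without Chir. Klf5 was lower by -1.16 ± 0.28 (0.0189), the 1 gene of the 6 beside 15.2% of all genes.

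Tfcp2l1 (-0.94 ± 0.41, limma adjusted p = 0.121), Klf2 (-0.996 ± 0.35, 0.0669) and Klf4 (-0.42 ± 0.21, 0.169) did not pass, and Nr0b1 and Zfp42 were too low to test. The Esrrb call was lost without day 18 (limma adjusted p = 0.0535). That of Klf5 was lost without day 6, 18, 22 or 30 (0.0501 to 0.0700), and that of Tbx3 without day 6, 12, 18 or 30 (0.0744 to 0.130). Only Esrrb passed without the day as a block (0.121 for Klf5 and 0.118 for Tbx3) or in 1 fit over 19 libraries (0.0812 for Klf5 and 0.296 for Tbx3), and Tbx3 was also lost with no intensity trend (0.0731). Klf2 passed without day 22 (-1.39, limma adjusted p = 0.0122).

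The rest of the pluripotency network differed between the same courses. Of 22 core and naive partners, 17 were lower and none higher without BrdU, where 21.5% of all genes were lower (median log2 difference -2.96, against 0.02 over all genes), among them Sall4 (mean 5.14 against 392), Tdgf1 (7 against 375) and Mybl2 (20.4 against 531). Sall4 is a zinc finger factor, Tdgf1 the Nodal co-receptor and Mybl2 a cell cycle factor of stem cells. Without Chir, 10 of 20 tested were lower (12.9% of all genes, median -2.25), with Sall4, Dppa2, Mybl2 and Tet1 at the smallest adjusted p. Along the full course 16 of 22 rose (9.31% of all genes), and at day 40 17 of 22 were below CiPSC (14.2% of all genes, median -1.71), Pou5f1 at 1046 against a mean of 4824 and Sox2 at 660 against 1931. The direction was not particular to naive genes. Of 14 genes of the primed and formative epiblast, 9 were lower and none higher without BrdU (median -1.69). Without Chir 3 of 11 tested were lower, and 5 of 14 rose along the full course. At day 40, 7 of 13 tested were below CiPSC and 1 above, beside the same shares of all genes lower or rising.

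The counts for the signalling pathways that feed the 8 genes are read against those over all genes, of which 21.1% were higher and 21.5% lower without BrdU, and 13.5% higher and 12.9% lower without Chir. Of 14 LIF, JAK and STAT3 genes, 3 were higher and 2 lower without BrdU, shares close to or below these. The receptor gene Lifr was lower (mean 183 against 629, -1.72 ± 0.38, limma adjusted p = 0.00657) and the kinase gene Tyk2 was lower, while Junb was higher. Without Chir 2 of the 14 were higher, Pim1 and Jak2, a share close to that over all genes, and none was lower. Of 16 Wnt targets and TCF factors, 14 were tested without Chir, and 5 were lower and 1 higher. Axin2, a direct beta-catenin target, averaged 74.8 against 340 (-2.12 ± 0.37, limma adjusted p = 0.0138), and Znrf3 13.2 against 73.8, while Ccnd1 was higher, 2786 against 351. Without BrdU 4 of 15 were higher and 6 lower, with Lgr5 (652 against 150) and Nkd1 (656 against 198) higher and Dkk1 (1.14 against 64.3) and Tcf7 lower.

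Other members of the same gene families were counted in the same comparisons, against the same shares over all genes. Of 11 other Krüppel-like factor genes, 7 were lower without Chir and none higher (12.9% of all genes lower, median -1.32), among them Klf13 (157 against 448), Klf11 (38.6 against 202), Klf3 (104 against 289) and Klf10 (123 against 299). Without BrdU 4 were lower and 1 higher (21.5% and 21.1% of all genes); Klf8 averaged 3.71 against 178 and Klf13 166 against 459. Of 7 other T-box genes tested, 5 were higher without BrdU and 1 lower (21.1% of all genes higher, median 1.65): Tbx2 averaged 378 against 105, Tbx18 102 against 45.9 and Tbx4 11.4 against 1.57, while Tbx20 was listed at 0 in all 7 libraries without BrdU and at 10 to 44 in the full course. Of 8 relatives of Esrrb, Nr0b1, Tfcp2l1 and Zfp42, 2 were higher and 2 lower without BrdU, near the shares of all genes (21.1% and 21.5%). The Esrrb relative Esrra was higher (158 against 87.3), and Ubp1 and Yy1, relatives of Tfcp2l1 and Zfp42, were lower by -0.52 ± 0.13 and -0.33 ± 0.10.

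Markers of other lineages differed between the courses as well. Of 18 extraembryonic endoderm markers, 17 were lower without BrdU and 15 lower without Chir, where 21.5% and 12.9% of all genes were. Their sum was 12554 on day 6 of the full course and 61749 to 103458 on days 12 to 40. It was 8191 to 10611 without BrdU, 6496 to 13658 without Chir, 16595 in MEF and 1785 to 3645 in CiPSC. Gata4 stood at 1154 to 2768 and Sox17 at 601 to 1534 on days 12 to 40 of the full course, against at most 10 and 18 without BrdU, and at most 106 and 150 without Chir. On day 6 of the full course Gata4 stood at 12 and Sox17 at 15. The highest sum fell on day 22, which is also the highest day of Klf4 and Klf5. Lamc1 stood at the ceiling of 21988 on days 12 to 36, and Col4a1 and Col4a2 on days 22 to 40. The sums of all these days are therefore bounded, and which of them is highest is not firm. On day 30 Klf4 stood at 2164 and Klf5 at 405. Of 12 epithelial markers 12 rose along the full course (9.31% of all genes), with Cdh1 at 34 on day 6 and 2038 on day 40. Of 14 fibroblast markers 11 were higher without BrdU (21.1% of all genes) and none lower. The part of these cell types in the differences of the 8 genes was not tested. The 9 endothelial markers summed to 344 in MEF, 401 to 630 in the full course, 332 to 647 without BrdU, 531 to 1271 without Chir and 936 to 1468 in CiPSC. Of the defining ones, Pecam1 stood at 404 to 540 in CiPSC, where Cdh5 was listed at 0, and at 8 to 222 in the full course, where Cdh5 stood at 62 to 175. The 10 trophoblast markers summed to 127 in MEF, 387 to 899 in the full course, 122 to 2363 without BrdU, 328 to 1141 without Chir and 383 to 1082 in CiPSC. Of these, Cdx2 stood at 80 or less and Eomes at 94 or less in every library, and Krt7 reached 2033 without BrdU and Tfap2c 848 in CiPSC (both named after their values were seen).

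Over the 7 days of the full course Esrrb, Zfp42, Tfcp2l1 and Nr0b1 followed each other closely. The log2 scores of Esrrb and Zfp42 had the highest Pearson r among the 8 genes (r = 0.976, Spearman rho = 0.964, n = 7), and those of Tfcp2l1 and Zfp42 the highest rho (r = 0.955, rho = 1). Esrrb with Tfcp2l1 gave 0.951 and 0.964. Nr0b1 gave 0.866 and 0.883 with Esrrb, 0.941 and 0.955 with Tfcp2l1, and 0.900 and 0.955 with Zfp42. Klf4 and Klf5 had r = 0.883 and rho = 0.613. Tbx3 ran against the rising genes, with r of -0.647 with Esrrb, -0.684 with Zfp42 and -0.796 with Nr0b1. These points share 1 course in time order, so the values describe it and carry no test. Among the 6 CiPSC libraries, Esrrb and Zfp42 had r = 0.063, and the closest pairs were Tbx3 with Zfp42 (0.923 and 0.771) and Nr0b1 with Zfp42 (0.918 and 0.886).

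Across all 26 libraries the gene most like Zfp42 was Dppa4 (r = 0.993), which was also the nearest to Nr0b1 (0.980) and Tfcp2l1 (0.978). Esrrb was nearest to Mreg (0.985), then Dppa2 (0.970) and Zfp42 itself (0.969). Klf5 was nearest to Pom121 (0.977) and Tnks2 (0.951), Klf2 to Arhgap39 (0.890) and Klf4 to Tnrc6a (0.822). Tbx3 had the least close neighbour, Notum (0.764), a secreted inhibitor of Wnt proteins. The CiPSC libraries weigh on these lists: over the 20 libraries without them, 7 of the 24 nearest genes (3 for each of the 8) were the same.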

How the data were processed

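Total RNA of the 26 libraries was prepared with a TruSeq kit and read on a NextSeq 500, per the labels' protocols. Reads were processed with bcl2fastq, Bowtie2 and RSEM on mm10, per the submitters' processing notes, which give no versions; the annotation, normalization and filters are not given in the sources used here. The authors deposited 1 table of whole-number values, treated as a score: its name says CPM, but every library has the same distribution, as after quantile normalization. The tests were designed for a normalized unit and kept. Whole reads cannot be recovered from such scores, which excludes count models.

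Scores were compared on log2(score + 1) with limma 3.58.1 (R 4.3.3), with an intensity trend, over genes with a mean of at least 1 in the libraries of a fit and adjusted over all of them (Benjamini-Hochberg, two-sided, call under 0.05). Courses were compared with the day as a block, since the labels give each library a day. In CiPSC comparisons, 878 genes at 0 in every CiPSC library were left out. The scripts were tested on simulated data.

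The 8 genes and the gene lists were chosen with earlier results of these data known. From lists, up to 4 genes with the smallest adjusted p were named, plus defining markers and, for likeness, the 3 nearest genes among those that reach a score of 50. Positions are from GENCODE M21 and promoters from RefSeq (GRCm38.p6). A comparison of the proteins of Klf2, Klf4 and Klf5 was not run.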

Additional observations from a re-analysis of the deposited data

Results flagged for a closer look

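Of the 8 genes, 2 had an effect of leaving out BrdU that differed between days 30 to 40 and days 6 to 22 by a test of that difference. Over all genes tested, 13.6% were called in either direction. For Klf5 the difference was -1.61 on the log2 scale, a larger loss on the later days. For Tbx3 it was 1.18, with lower scores without BrdU on 4 of 4 days up to day 22 and on 1 of 3 later days. In neither case does the design hold replicates within a day. Both calls were lost without day 36, without day 40 and without the day as a block. No score of the 8 genes in the 6 CiPSC libraries stood far from the other 5 by Dixon's test.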

How the results depend on the processing

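Of 910 repeats of a gene's value under the alternatives, 836 kept their direction and their side of the threshold, 51 lost a call, 10 gained one and 13 turned direction. The turned ones are Klf2, Klf4, Klf5 and Tbx3 values that were not called in any setting that turned. Klf2 without Chir was -0.16 in 1 fit over 19 libraries. With 1 day or library left out in turn, Klf2 ranged from -0.015 to 0.78 without BrdU and -0.23 to 0.44 without Chir. The late BrdU effect on Klf4 ranged from -0.071 to 0.70. Late against early days ranged from -0.41 to 0.38 for Klf4 and -0.89 to 0.025 for Klf5. Slopes ranged from -0.05 to 0.57 for Klf5 and -0.69 to 0.084 for Tbx3 in the full course, from -0.14 to 0.07 for Klf4 and -0.21 to 0.29 for Tbx3 without BrdU, and from -0.82 to 0.30 for Klf5 and -0.40 to 0.81 for Tbx3 without Chir. The same leave-one-out fits called 25 to 4994 genes (0 to 5 of the 8) without Chir, 2772 to 4783 (0 to 3) for Chir against BrdU, 713 to 2472 (0 to 4) for the late BrdU effect, 892 to 2281 (1 to 4) for late against early days, 1377 to 2862 for the slope in the full course, 0 to 1095 (0 to 1 of the 8) without BrdU and 0 to 142 without Chir. Pairing by day mattered for counts of the 8: without the replicate block of day, 1 was called for Chir against BrdU (3 with it) and 0 for the late BrdU effect (2 with it), and it moved no other count by over 1.5 times. Fitted over 19 libraries, leaving out Chir called 6895 genes (4298 in the 5-day fit), and Chir against BrdU called 1 of the 8. Over days 6 to 30 alone, leaving out BrdU called 3735 genes (6946 over 7 days). With no intensity trend, 1 of the 8 was called for the late BrdU effect, 1 for late against early days, and 0 genes for the slope without Chir. At 5% of the CiPSC mean, 5 of the 8 were past the mark by day 22 (3 at 10%), and 7 of 24 nearest genes were shared without CiPSC. Depth is unknown, so the low scores of Nr0b1, Zfp42 and Tfcp2l1 outside the full course have no counting error. MEF and the day 40 libraries had no replicate and took their spread from CiPSC.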
